A study of Mus musculus with 11 samples.

Results

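Blood group antigens and the membrane proteins that carry them cover the surface of red cells, and 8 genes for such proteins (Rhag, Rhd, Kel, Xk, Ermap, Icam4, Gypc and Aqp1) were followed in hearts of mouse embryos with and without the cyclic nucleotide phosphodiesterase Pde2A. They were 8 of the 55487 genes in the count tables, found by their GRCm38 symbols. The group was chosen by its own readout, the large rise of Icam4, Ermap and Rhag in Pde2A-/- over Pde2A+/+ hearts, so the genotype difference of each of the 8 genes is given below as a description, with no p-value, and counts of genes past the threshold are given for completeness only. Every one of the 8 passed the filter on low counts.

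The samples were isolated hearts at E14.5, in mid-gestation, 5 of genotype Pde2A-/- and 6 of genotype Pde2A+/+, each sequenced as its own stranded mRNA library. All came from the line B6; 129P2-Pde2A<tm1Dgen>, from matings of heterozygous females with heterozygous males, and no drug is named for them. The targeted allele is present in every cell of the embryo, and the study's text describes anaemia and a small liver in untreated Pde2A-/- embryos, so genotype and the state of the blood in these embryos cannot be told apart. Both sexes were collected, and the sex, litter and preparation date of single hearts were not given in the sources used here. Hearts are named by the submitters' letters and numbers, A, B, 14, D and 15 for Pde2A-/- and 7, 11, 6, 8, H and E for Pde2A+/+.

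Between 35865537 and 42835382 sense-strand reads fell on genes in each heart, and values are given as CPM, the counts of a gene scaled to library size, after TMM correction for library composition. The targeted gene itself could not be used to check the labels, since Pde2a held between 0 and 2 sense reads in every heart of either genotype. In whole tissue, fewer cells of a type and less RNA per cell cannot be told apart, and this applies to each value below. Liver RNA was present in some hearts: Alb, the major plasma protein gene of hepatocytes, was above 10 CPM in 4 of 11 hearts, Pde2A-/- heart D (11.5 CPM) and Pde2A+/+ hearts 11 (16.9 CPM), H (15.8 CPM) and E (46.6 CPM). Leaving out these hearts left 4 Pde2A-/- and 3 Pde2A+/+ hearts. Over all genes, 482 were then past the threshold as higher and 50 as lower, against 2160 and 1372 with every heart. Whether a call lost without these hearts reflected fewer hearts or liver RNA was not tested.

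Red cells are made from erythroblasts, which at this stage of mouse development mature mainly in the fetal liver while the earlier primitive red cells still circulate. During maturation the erythroblast builds its membrane as a set of linked complexes: Rhag and Rhd sit with the anion exchanger band 3, Kel is joined to Xk, and Gypc ties the bilayer to the spectrin skeleton. Transcripts for membrane proteins and for globins are made before the nucleus is lost, and globin mRNA persists into the reticulocyte. Rhag, Rhd, Kel and Ermap are known as genes of the erythroid lineage, whereas Gypc is made in many cell types and Aqp1 is a well known water channel of endothelium.

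The sequence before the RefSeq start of each gene is shown first. A GATA-type word lay close to that start in the 5 genes with the largest differences. None was found in the windows of Xk and Aqp1, the only other genes with an entry. GATA1, the erythroid member of this family, binds such words. The table of RefSeq promoter windows (GRCm38.p6, 250 bases before to 50 after the start) held 7 of the 8 genes, all but Gypc. Each line gives the 120 bases that precede the RefSeq start, 5′ to 3′ on the strand of the gene, and capitals mark GATA with A or T before it and A or G after it, on either strand.
Rhag (chr17:40811029-40811148, plus strand): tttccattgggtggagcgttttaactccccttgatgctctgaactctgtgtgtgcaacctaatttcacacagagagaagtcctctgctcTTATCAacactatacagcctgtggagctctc
Rhd (chr4:134864416-134864535, plus strand): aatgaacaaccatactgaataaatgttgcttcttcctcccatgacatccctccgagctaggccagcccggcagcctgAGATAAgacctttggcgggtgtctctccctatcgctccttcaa
Kel (chr6:41704326-41704445, minus strand): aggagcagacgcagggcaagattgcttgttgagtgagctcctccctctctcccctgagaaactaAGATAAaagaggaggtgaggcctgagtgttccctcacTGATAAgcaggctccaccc
Ermap (chr4:119189996-119190115, minus strand): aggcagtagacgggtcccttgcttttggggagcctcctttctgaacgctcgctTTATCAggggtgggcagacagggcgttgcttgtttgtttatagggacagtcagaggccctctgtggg
Icam4 (chr9:21029312-21029431, plus strand): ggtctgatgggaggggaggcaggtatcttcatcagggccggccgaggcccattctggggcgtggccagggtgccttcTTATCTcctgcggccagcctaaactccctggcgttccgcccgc
Xk (chrX:9272664-9272783, plus strand): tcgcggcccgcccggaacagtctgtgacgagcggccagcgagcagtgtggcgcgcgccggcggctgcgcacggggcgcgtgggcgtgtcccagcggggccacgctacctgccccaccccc
Aqp1 (chr6:55336179-55336298, plus strand): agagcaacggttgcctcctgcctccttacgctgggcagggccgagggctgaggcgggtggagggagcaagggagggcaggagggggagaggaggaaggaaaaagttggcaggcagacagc
A word was present in 5 of 7 windows, and of all 32851 windows of the same length 29.8% held one. Within the 120 bases printed, the share over all windows was 12.8%. The words lay 31 to 26 bases before the start in Rhag, 43 to 38 in Rhd, 67 to 62 in Ermap and 43 to 38 in Icam4, and Kel held a pair of them, at 56 to 51 and 19 to 14. Those of Rhd and Kel read on the strand of the gene, and those of Rhag, Ermap and Icam4 on the opposite strand. The pattern CCNCNCCC, of the kind that Klf factors bind, was found on either strand in 4 of 7 windows (Rhd, Icam4, Xk and Aqp1) and in 49.5% of all windows. It does not cover every CACCC. The plain letters CACCC, or GGGTG for the opposite strand, also stand in the printed lines of Rhag, Kel and Ermap. The share of all windows with those plain letters was not computed. Distances are from the RefSeq start, and the gene coordinates given with the values below are those of GENCODE M21, whose start can differ from it. By GENCODE, the lines of Rhag, Kel, Ermap, Icam4 and Xk end inside the gene. The word of Icam4 lies inside its gene, after the start at 21029373, and the nearer word of Kel reaches the first base of its gene. The window of Aqp1 ends at 55336348, short of its GENCODE start at 55336432, and its last bases were not found in an annotated transcript. The words were picked with these sequences in view, and the rise of Icam4, Ermap and Rhag chose the group. Nothing is therefore read from the split of the genes by the size of their difference. A match describes letters, not a bound site, and a window without one says nothing of the factor.

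**Figure D1:**
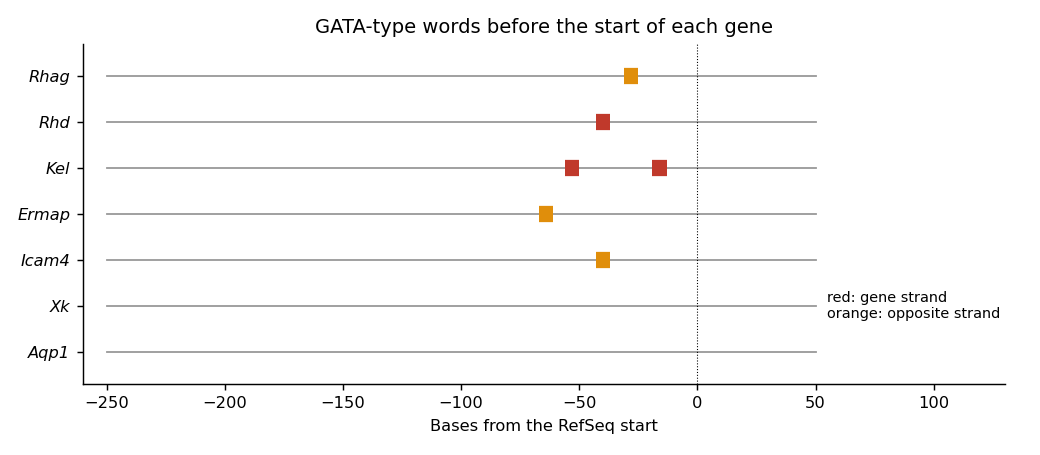
Position of GATA-type words in the 7 promoter windows, in bases from the RefSeq start (dotted line at 0, negative values before the start). Each grey line is a window and each coloured block is a word, red on the strand of the gene and orange on the opposite strand. The blocks of Rhag, Rhd, Kel, Ermap and Icam4 lie within 67 bases of the start, and the lines of Xk and Aqp1 are empty.

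The comparison of genotypes asked how these surface genes stood in hearts without Pde2A. Rhag, Ermap, Icam4, Kel and Rhd were between 6.97 and 21.2 times as high in Pde2A-/- as in Pde2A+/+ hearts, Xk was 1.97 times as high, and Gypc and Aqp1, the genes with the highest levels in Pde2A+/+ hearts, were 1.41 and 1.26 times as high. In 6 of 8 genes every Pde2A-/- heart lay above every Pde2A+/+ heart, which was also so for 5.38% of the 24177 genes tested. At an adjusted p under 0.05 (quasi-likelihood test of edgeR, adjusted by Benjamini-Hochberg) 7 of 8 were higher and 0 lower, against a background of 8.93% higher and 5.67% lower among all genes. With a fold change of 2 or more as well, 5 of 8 were counted, against 2.21% of all genes. Because this contrast chose the group, nothing is read from these counts. Over the 8 genes the log2 fold changes had a median of 2.87, and over all genes tested one of -0.02.

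The Rh complex was the first of the surface assemblies. Rhag (ENSMUSG00000023926, chr17:40811126-40840754, plus strand, GRCm38), the Rh-associated glycoprotein that acts as an ammonia and gas channel and without which Rh proteins do not reach the membrane, read 16.1, 31.1, 28.04, 24.2 and 28.7 CPM in Pde2A-/- hearts A, B, 14, D and 15. In Pde2A+/+ hearts it ran from 0.192 to 2.16 CPM with a median of 1.27 CPM. The groups were far apart, the lowest Pde2A-/- heart being 7.46 times the highest Pde2A+/+ heart. The means were 25.6 CPM ± 5.86 (SD, n = 5) and 1.20 CPM ± 0.747 (SD, n = 6), a log2 fold change of 4.40 with a standard error of 0.37. The Pde2A+/+ values rested on few reads, 7 in heart 6 and a median of 47.5 over the 6 hearts, against 618 to 1317 in Pde2A-/- hearts.

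Rhd (ENSMUSG00000028825, chr4:134864536-134896172, plus strand), the single mouse counterpart of the human RhD and RhCE antigen carriers, read 22.5, 37.5, 33.3, 26.1 and 29.2 CPM in hearts A, B, 14, D and 15. Its Pde2A+/+ values ran from 2.11 to 6.82 CPM with a median of 4.53 CPM. There was no overlap here either, but the gap was narrower than that of Rhag, the lowest Pde2A-/- heart being 3.29 times the highest Pde2A+/+ heart. The means of 29.7 CPM ± 5.90 (SD, n = 5) and 4.25 CPM ± 1.87 (SD, n = 6) gave a log2 fold change of 2.80 with a standard error of 0.26. The ratio of the pair therefore differed between genotypes: per kilobase of exon, Rhag stood at 0.489 to 0.670 of Rhd in Pde2A-/- hearts and at 0.0620 to 0.287 in Pde2A+/+ hearts, with no overlap.

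The Kell complex joins a surface protease to a scramblase. Kel (ENSMUSG00000029866, chr6:41686330-41704339, minus strand), the Kell glycoprotein and an endothelin-converting metalloprotease, read 17.0, 36.7, 24.4, 24.1 and 24.8 CPM in hearts A, B, 14, D and 15 and 1.34 to 5.41 CPM, with a median of 3.21 CPM, in Pde2A+/+ hearts. All Pde2A-/- hearts were above all Pde2A+/+ hearts, and heart B stood apart at the top. The means were 25.4 CPM ± 7.11 (SD, n = 5) and 3.30 CPM ± 1.45 (SD, n = 6), and the log2 fold change was 2.94 with a standard error of 0.28. Xk (ENSMUSG00000015342, chrX:9272756-9313250, plus strand), the membrane partner to which Kell protein is bonded and a lipid scramblase, read 15.5, 21.3, 19.6, 19.5 and 20.8 CPM and 7.995 to 11.8 CPM, with a median of 9.54 CPM. The Xk groups also did not meet, but the distance was small. The means were 19.3 CPM ± 2.28 (SD, n = 5) and 9.82 CPM ± 1.34 (SD, n = 6), a log2 fold change of 0.98 with a standard error of 0.10. Per kilobase, Kel stood at 2.003 to 3.15 times Xk in Pde2A-/- hearts and at 0.265 to 1.01 times Xk in Pde2A+/+ hearts. Kel was thus above Xk in every Pde2A-/- heart and, among Pde2A+/+ hearts, only in heart 11.

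Ermap and Icam4 are immunoglobulin-superfamily proteins of the erythroid surface. Ermap (ENSMUSG00000028644, chr4:119175457-119190011, minus strand), the butyrophilin-like carrier of the Scianna antigens, read 30.9, 60.9, 54.4, 45.9 and 49.9 CPM in hearts A, B, 14, D and 15. In Pde2A+/+ hearts it ran from 0.986 to 5.76 CPM with a median of 2.56 CPM. The lowest Pde2A-/- heart was 5.36 times the highest Pde2A+/+ heart. The means were 48.4 CPM ± 11.3 (SD, n = 5) and 2.91 CPM ± 1.87 (SD, n = 6), a log2 fold change of 4.05 with a standard error of 0.36.

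Icam4 (ENSMUSG00000001014, chr9:21029373-21030595, plus strand), the Landsteiner-Wiener glycoprotein through which erythroblasts adhere to integrins on macrophages, read 3.94, 7.34, 6.54, 5.83 and 6.36 CPM in hearts A, B, 14, D and 15 and 0.356 to 0.788 CPM, with a median of 0.522 CPM, in Pde2A+/+ hearts. The groups were again separate, and the Pde2A+/+ hearts were closer to each other than for Rhag or Ermap. The means were 6.00 CPM ± 1.27 (SD, n = 5) and 0.564 CPM ± 0.162 (SD, n = 6), with 151 to 311 reads behind each Pde2A-/- value and 13 to 30 behind each Pde2A+/+ value. The log2 fold change was 3.40 with a standard error of 0.21. Its exons are covered in full by the antisense gene Gm47079, so that counting without strand leaves Icam4 at 0 in every heart, and the sense-strand reads used here hold it apart from that gene. Reads on the opposite strand came to 0.992% of its total.

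Icam4 lies in a row of related adhesion genes on chromosome 9. Icam1, the leukocyte adhesion receptor of endothelium, ends 555 bases before it and Icam5 starts 1477 bases after it. Icam1 was 48.5 CPM ± 16.3 (SD, n = 5) in Pde2A-/- and 17.7 CPM ± 2.85 (SD, n = 6) in Pde2A+/+ hearts, a log2 fold change of 1.46 with a standard error of 0.20 (quasi-likelihood test of edgeR, adjusted p = 0.000434). Icam5, on its other side, was barely expressed, at 0.148 CPM ± 0.112 (SD, n = 5) and 0.142 CPM ± 0.0414 (SD, n = 6).

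Gypc and Aqp1 differed least between genotypes. Gypc (ENSMUSG00000090523, chr18:32528322-32560034, minus strand), glycophorin C, the Gerbich antigen carrier that anchors protein 4.1 and the skeleton, read 49.8, 62.3, 65.4, 65.2 and 68.2 CPM in hearts A, B, 14, D and 15. Its Pde2A+/+ values ran from 40.8 to 50.2 CPM with a median of 43.1 CPM. The groups touched at one point, heart A lying just under Pde2A+/+ heart E, and the other 4 of 5 Pde2A-/- hearts were above every Pde2A+/+ heart. The means were 62.2 CPM ± 7.25 (SD, n = 5) and 44.0 CPM ± 3.26 (SD, n = 6), a log2 fold change of 0.50 with a standard error of 0.08.

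Aqp1 (ENSMUSG00000004655, chr6:55336432-55348555, plus strand), the water channel that carries the Colton antigens, read 89.5, 100.4, 129.5, 104.9 and 126.4 CPM in hearts A, B, 14, D and 15. Its Pde2A+/+ values ran from 73.3 to 111.1 CPM with a median of 85.5 CPM. The ranges overlapped widely, and only hearts 14 and 15 were above every Pde2A+/+ heart. The means were 110.2 CPM ± 17.2 (SD, n = 5) and 87.6 CPM ± 13.3 (SD, n = 6), a log2 fold change of 0.33 with a standard error of 0.11. It was the member that did not pass the adjusted p. As Aqp1 is also a gene of endothelium, the endothelial markers stand beside it. Their summed level ran from 1288 to 1421 CPM in Pde2A-/- and from 1072 to 1278 CPM in Pde2A+/+ hearts. Of these markers 2 of 8 rose (Emcn by 0.50 and Pecam1 by 0.34 on the log2 scale) and 1 of 8, Cldn5, fell (-0.79). Of all genes, 8.93% were higher and 5.67% lower. Without the 4 hearts with over 10 CPM of Alb 0 of the 8 were higher, and their part in the Aqp1 values was not tested.

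**Figure D2:**
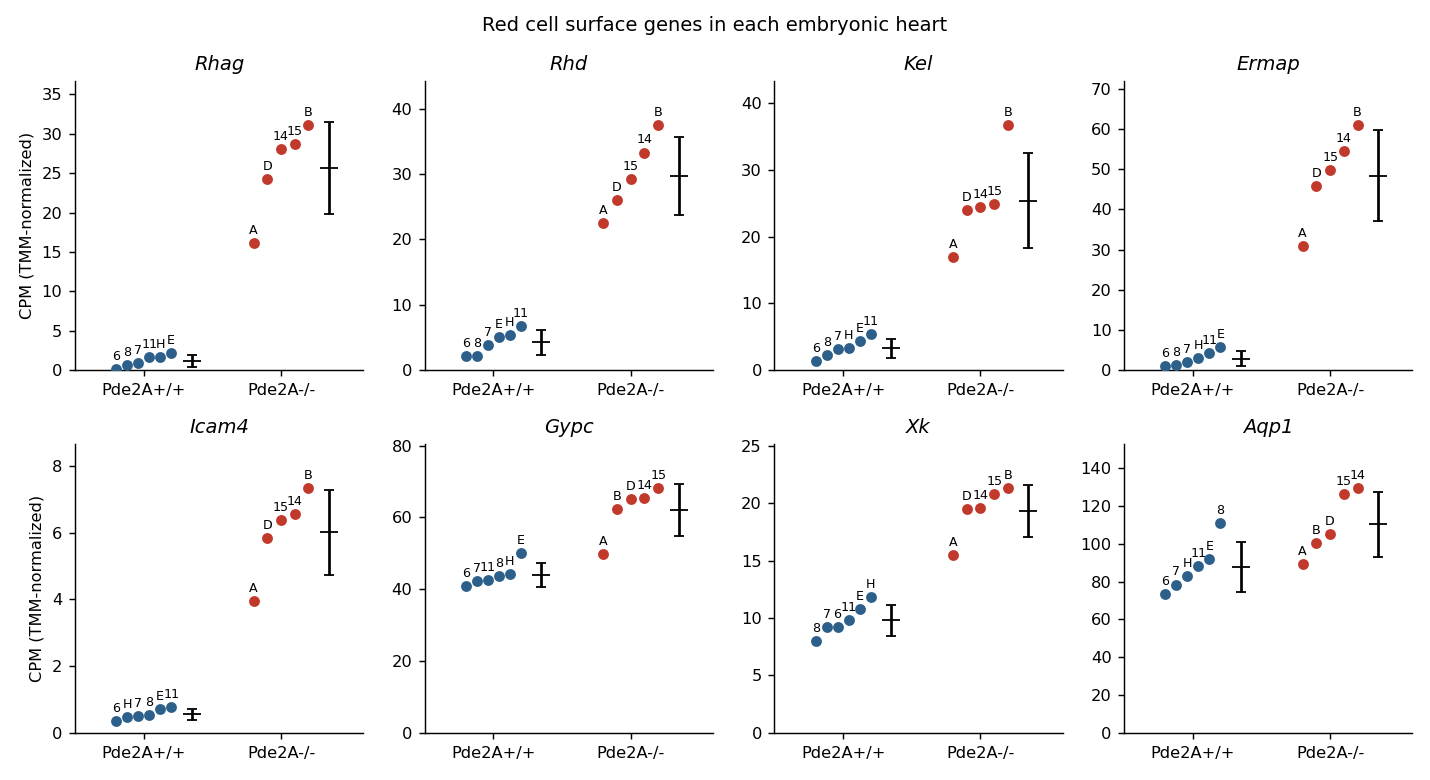
CPM of each of the 8 genes in each heart, on linear axes from 0, with Pde2A+/+ hearts in blue and Pde2A-/- hearts in red, labelled by heart and drawn from lowest to highest. Black bars are mean ± SD (n = 6 and n = 5). Rhag, Rhd, Kel, Ermap, Icam4 and Xk show no overlap, while heart A meets the Pde2A+/+ range in Gypc and 3 of 5 Pde2A-/- hearts do so in Aqp1.

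The lowest hearts were nearly the same from gene to gene, and the highest were less so. Heart A was the lowest Pde2A-/- heart in each of the 8 genes, and heart B was the highest in 6 of them, the exceptions being Gypc (heart 15) and Aqp1 (heart 14). Among Pde2A+/+ hearts, heart 6 was the lowest in 7 of 8 genes and heart 8 in Xk. The highest Pde2A+/+ heart changed with the gene, being E for Rhag, Ermap and Gypc, 11 for Rhd, Kel and Icam4, H for Xk and 8 for Aqp1. The spread within Pde2A+/+ hearts set the genes apart: the coefficient of variation was 64.3% for Ermap, 62.4% for Rhag, 44.0% for Rhd and 43.8% for Kel, against 28.7% for Icam4, 15.1% for Aqp1, 13.7% for Xk and 7.42% for Gypc. Within Pde2A-/- hearts it lay between 11.7% and 27.97% for all 8. The highest Pde2A+/+ heart was 11.3 times the lowest for Rhag and 5.84 times for Ermap, whereas in Pde2A-/- hearts these ratios were 1.93 and 1.97.

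Levels can be set against each other only per length of exon. In Pde2A+/+ hearts Aqp1 led with 33.3 CPM per kilobase ± 5.05 (SD, n = 6), followed by Gypc with 18.9 ± 1.40, and then, at a distance, Rhd with 2.67 ± 1.17, Xk with 1.94 ± 0.264 and Kel with 1.19 ± 0.521. Ermap (0.550 ± 0.353), Rhag (0.512 ± 0.320) and Icam4 (0.508 ± 0.146) were lowest. Only the steps from Aqp1 to Gypc and from Gypc to Rhd exceeded the ranges of the 6 hearts, and each later neighbour overlapped the next. The order of the last 3 was not stable: without the 4 hearts with over 10 CPM of Alb, Icam4 stood at 0.419, above Ermap at 0.266 and Rhag at 0.242 CPM per kilobase. In Pde2A-/- hearts Aqp1 (41.9 CPM per kilobase) and Gypc (26.7) still led and Rhd (18.6) came next, its range meeting that of Gypc. Rhag followed with 10.96, ahead of Kel with 9.16, Ermap with 9.13 and Icam4 with 5.41, and Xk was last with 3.81. In that order only the steps from Aqp1 to Gypc and from Rhd to Rhag were free of overlap.

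**Figure D3:**
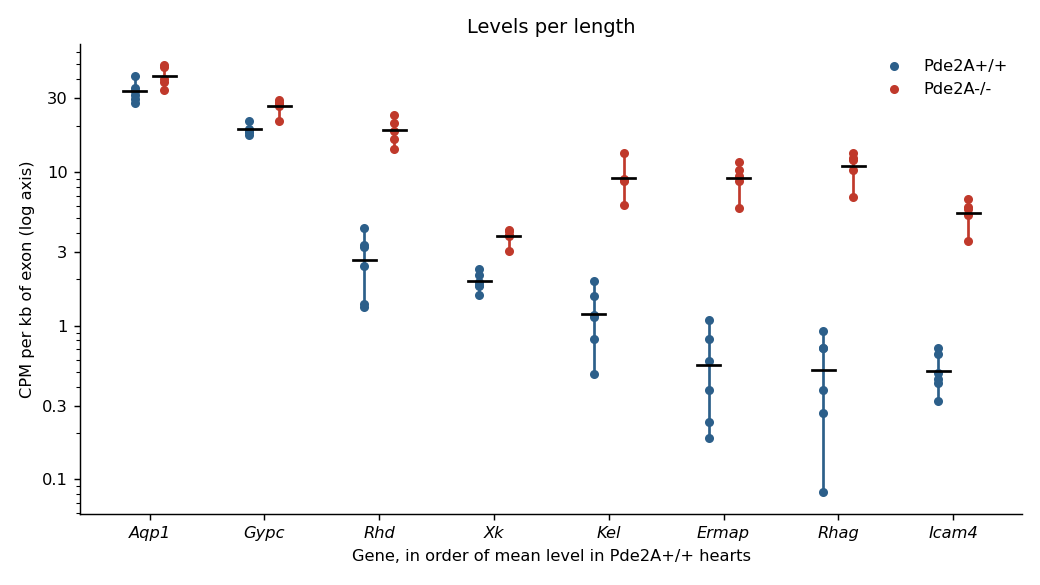
CPM per kilobase of exon of the 8 genes (log axis), ordered by mean level in Pde2A+/+ hearts. Points are single hearts (blue Pde2A+/+, red Pde2A-/-), vertical lines span lowest to highest heart, and black ticks are means. Rhag, Ermap and Icam4 lie between 0.0820 and 1.09 CPM per kilobase in Pde2A+/+ hearts and between 3.55 and 13.3 in Pde2A-/- hearts, while Aqp1 and Gypc shift little.

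Globin reads were set beside the surface genes heart by heart. The mouse line is of mixed strain background, and whether globin reads mapped equally well in both genotypes was not tested. Loss of reads shared by near-identical globin copies was not tested either. The 4 adult globin genes, the most abundant transcripts of late erythroid cells, summed to between 2987 and 5076 CPM in Pde2A-/- hearts and to between 3104 and 12743 CPM in Pde2A+/+ hearts. Of these, 1 of 4 fell and 0 rose, beside 8.93% higher and 5.67% lower of all genes. It was Hbb-bt, an adult beta globin, at 510.7 CPM ± 93.8 (SD, n = 5) against 1373 CPM ± 715 (SD, n = 6). The log2 fold change was -1.43 with a standard error of 0.31 (quasi-likelihood test of edgeR, adjusted p = 0.0105). By the same test the adjusted p was 0.11 without the 4 hearts with over 10 CPM of Alb. That fit held 4 Pde2A-/- and 3 Pde2A+/+ hearts. Hba-a2, which has a near-identical copy in Hba-a1, was next with a log2 difference of -0.70 that did not pass (adjusted p = 0.131). The 3 embryonic globins, carried by primitive red cells, gave 0 of 3 past the threshold with edgeR and 0 with DESeq2 (1 of 3 higher at an unadjusted p under 0.05). The shares of all genes with edgeR were again 8.93% and 5.67%. Their largest log2 differences were those of Hbb-bh1, 0.79, and Hbb-y, 0.24.

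Per 1000 CPM of adult globin, Rhag stood at 4.77 to 7.20 CPM in Pde2A-/- hearts and at 0.0618 to 0.458 CPM in Pde2A+/+ hearts. Ermap stood at 9.03 to 13.97 CPM and at 0.256 to 1.22 CPM on that scale. Rhd, at 5.13 to 8.54 CPM against 0.481 to 1.09 CPM, and Kel, at 4.74 to 7.48 CPM against 0.357 to 0.920 CPM, were likewise apart. The same held for Icam4, at 1.15 to 1.68 CPM against 0.0518 to 0.153 CPM, and for Xk, at 3.84 to 5.20 CPM against 0.770 to 2.98 CPM. Gypc, with 12.7 to 16.8 CPM against 3.35 to 13.1 CPM, and Aqp1, with 20.5 to 33.2 CPM against 6.93 to 24.3 CPM, overlapped. The adult globin sum itself had a median of 4909 CPM in Pde2A-/- and 6290 CPM in Pde2A+/+ hearts. A lower sum, also one lowered by globin reads lost in mapping, raises the values of any gene on this scale. The share of all genes that stood apart on it was not computed, so nothing particular to the surface genes is read from it. Hearts with close amounts of adult globin reads could be set side by side. Pde2A-/- heart A and Pde2A+/+ heart 6 held 2987 and 3104 CPM of it, with 16.1 and 0.192 CPM of Rhag. For Rhd these hearts held 22.5 and 2.11 CPM, and for Ermap 30.9 and 0.986 CPM. Heart 6 was the lowest Pde2A+/+ heart for each of these genes, with 7 reads of Rhag. Pde2A-/- heart B and Pde2A+/+ heart E held 4909 and 4723 CPM of adult globin. They held 31.1 and 2.16 CPM of Rhag, 37.5 and 5.14 CPM of Rhd, and 60.9 and 5.76 CPM of Ermap. Heart E was the highest Pde2A+/+ heart for Rhag and Ermap and had over 10 CPM of Alb.

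**Figure D4:**
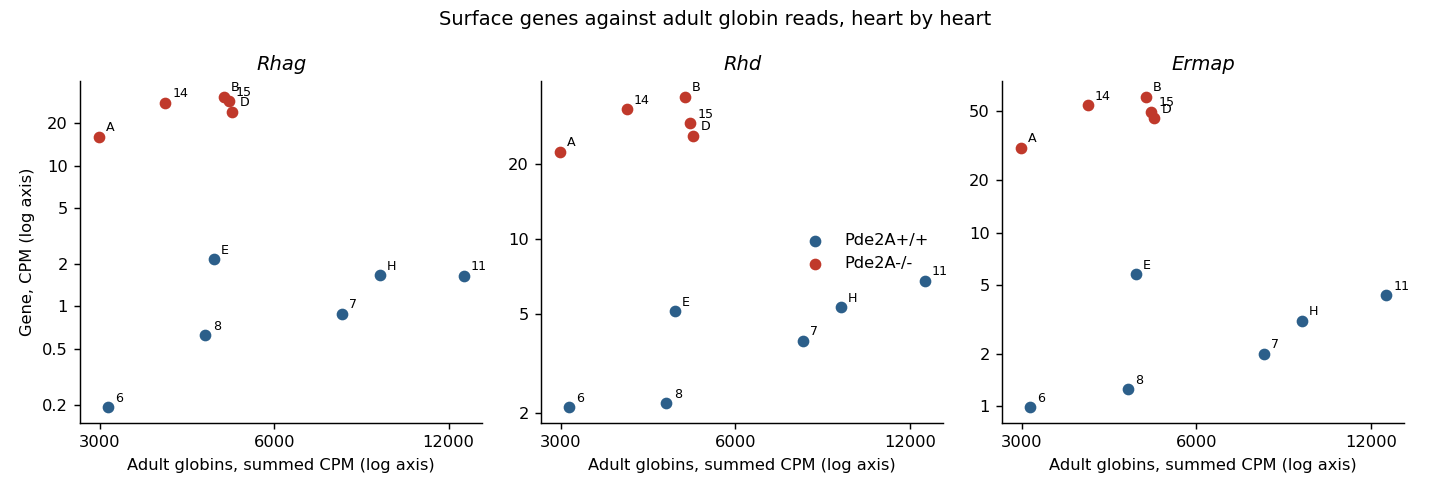
Rhag, Rhd and Ermap (CPM, log axis) against the summed CPM of the 4 adult globins (log axis) in each heart, blue for Pde2A+/+ and red for Pde2A-/-, labelled by heart. At globin sums of 2987 to 5076 CPM the Pde2A-/- hearts sit above all Pde2A+/+ hearts, whose sums reach 12743 CPM with Rhag at 2.16 CPM or less.

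Liver markers were high in some hearts of either genotype. The 8 liver markers summed to between 4.74 and 7.49 CPM in Pde2A-/- hearts A, B, 14 and 15 and to 44.2 CPM in heart D. In Pde2A+/+ hearts they summed to between 3.64 and 117.5 CPM. With edgeR or DESeq2 0 of 8 passed in either direction, beside 8.93% higher and 5.67% lower of all genes with edgeR. At an unadjusted p under 0.05, 1 of 8 was lower. The largest log2 differences were -2.94 for Apoa1 and -2.58 for Fgb, with standard errors of 1.17 and 1.36. Within Pde2A+/+, the 3 hearts with over 10 CPM of Alb held 1.66 to 2.16 CPM of Rhag and the other 3 held 0.192 to 0.887 CPM. For Ermap the same split gave 3.11 to 5.76 CPM and 0.986 to 2.01 CPM, for Rhd 5.14 to 6.82 CPM and 2.11 to 3.91 CPM, and for Kel 3.26 to 5.41 CPM and 1.34 to 3.16 CPM. For Xk it gave 9.81 to 11.8 CPM and 7.995 to 9.26 CPM, while Icam4, Gypc and Aqp1 overlapped across the split. Without the 4 hearts with over 10 CPM of Alb, a choice made after seeing the data, the log2 fold changes were 5.50 for Rhag, 5.11 for Ermap and 3.48 for Rhd, all larger than with every heart.

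Erythroid markers other than globins moved with the surface genes. Of 12 such genes 11 rose and 0 fell (background 8.93% and 5.67%), with a median log2 fold change of 2.34 against -0.02 over all genes, and their sum ran from 766 to 1434 CPM in Pde2A-/- and from 279 to 724 CPM in Pde2A+/+ hearts. Hemgn, a nuclear protein of erythroid precursors, rose most, from 1.54 CPM ± 1.03 (SD, n = 6) to 47.9 CPM ± 11.5 (SD, n = 5), and Klf1, the erythroid Krüppel-like factor, rose from 1.02 CPM ± 0.538 (SD, n = 6) to 17.7 CPM ± 5.36 (SD, n = 5). The exception was Alas2, which starts haem synthesis in erythroid cells, at 124.3 CPM ± 25.7 (SD, n = 5) in Pde2A-/- and 189.0 CPM ± 103.5 (SD, n = 6) in Pde2A+/+ hearts (quasi-likelihood test of edgeR, adjusted p = 0.221). The part of the number or stage of erythroid cells in the values of the 8 surface genes was not tested.

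The known partners of these proteins were followed as a list of 8 genes, of which 5 rose, 0 fell and 3 did not pass (background 8.93% and 5.67%), with a median log2 fold change of 0.93. Epb42, protein 4.2, which links band 3 to ankyrin beside the Rh complex, rose by 2.96 on the log2 scale (standard error 0.31). Slc4a1, band 3 itself and the Diego antigen carrier, rose by 2.81 (0.30), and Ank1, ankyrin, by 1.04 (0.13). Cd47, the surface protein that holds macrophages off and is associated with the Rh complex, rose by 0.82 (0.13). Its adjusted p was 0.076 (quasi-likelihood test of edgeR) without the 4 hearts with over 10 CPM of Alb. That fit held 4 Pde2A-/- and 3 Pde2A+/+ hearts. In it 482 of all genes passed as higher and 50 as lower, against 2160 and 1372 with every heart. Mpp1 and Epb41, the partners of Gypc at the skeleton, had log2 differences of 0.25 (0.08) and 0.03 (0.16), and Vps13a, the partner of Xk, of 0.17 (0.07), none past the threshold. The partners that did not pass were thus those of Gypc and Xk.

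Among the 27 other carriers of blood group antigens, 15 rose, 1 fell and 11 did not pass, against backgrounds of 8.93% and 5.67%, with a median log2 fold change of 0.28. With a fold change of 2 or more, 5 of 27 rose and 0 fell. Without the 4 hearts with over 10 CPM of Alb 5 passed as higher and 0 as lower at any fold. In that fit, with 4 Pde2A-/- and 3 Pde2A+/+ hearts, 482 of all genes passed as higher and 50 as lower. The largest difference was that of Slc14a1, the Kidd urea transporter, at 1.12 CPM ± 0.297 (SD, n = 5) and 0.133 CPM ± 0.0502 (SD, n = 6), and Slc4a1 came next at 380.8 CPM ± 94.8 (SD, n = 5) and 54.2 CPM ± 24.6 (SD, n = 6). Ackr1, the Duffy chemokine receptor, stood at 3.51 CPM ± 0.880 (SD, n = 5) and 0.532 CPM ± 0.164 (SD, n = 6). Aqp3, the aquaglyceroporin of the GIL antigen, was the smallest of the 5 at 2.52 CPM ± 1.01 (SD, n = 5) and 0.837 CPM ± 0.494 (SD, n = 6), and its adjusted p passed 0.05 in 15 of 19 alternative settings, being 0.053, 0.056 and 0.054 without hearts 14, D and 15. Sema7a, the GPI-anchored John Milton Hagen antigen, was the one that fell, by 0.67 on the log2 scale, with an adjusted p of 0.0111 that was 0.16 without the 4 hearts with over 10 CPM of Alb (edgeR's quasi-likelihood test throughout).

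Some blood group antigens are sugars rather than proteins. Of the 8 glycosyltransferases that build the ABO, H, I, P1PK, globoside, FORS and Sid antigens, Abo had 0 reads in every heart and 0 of the 7 tested passed with edgeR in either direction, beside 8.93% higher and 5.67% lower of all genes. With DESeq2, 1 of the 7 was higher, and at an unadjusted p under 0.05 edgeR had 2 higher and 1 lower. Without Pde2A-/- heart A, 2 of the 7 passed as higher with edgeR. The largest log2 difference, -4.85 for B4galnt2, the Sid enzyme, had a standard error of 1.93 (adjusted p = 0.107).

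**Figure D5:**
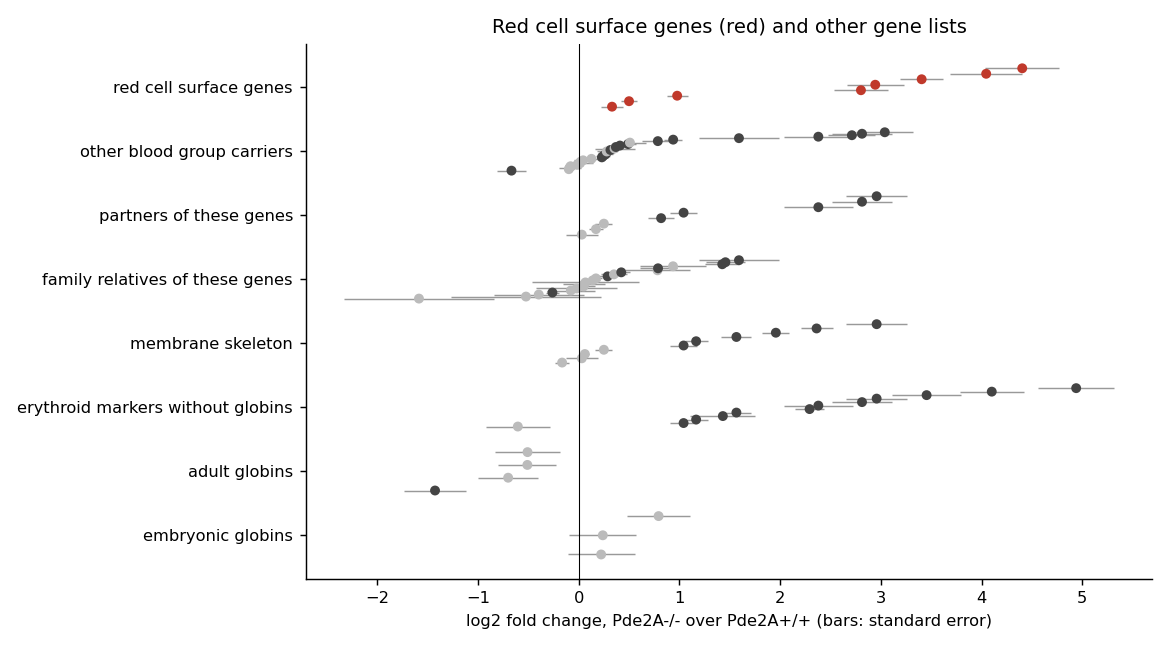
Log2 fold change of Pde2A-/- over Pde2A+/+ hearts for the 8 surface genes (red) and for genes of 7 other lists (dark, past an adjusted p of 0.05 with edgeR, or pale, not past it), with standard errors as bars. Aqp7, with 10 reads or fewer in each heart, is not drawn. The surface genes run from 0.33 to 4.40, the erythroid markers without globins from -0.60 to 4.94, and the adult globins lie below 0.

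Relatives of the 8 genes in their own protein families served to see whether the families moved. Of 24 relatives 21 could be tested (Rhbg, Xkr7 and Xkr9 had too few reads), and of these 6 rose, 2 fell and 13 did not pass (background 8.93% and 5.67%), with a median log2 fold change of 0.14. The number that fell was 0 without Pde2A-/- heart D or without heart 15. With a fold change of 2 or more, Icam1, Aqp3 and Mmel1 rose. Mmel1, a neprilysin-like protease of the family of Kel, stood at 1.71 CPM ± 0.312 (SD, n = 5) and 0.637 CPM ± 0.0967 (SD, n = 6), a log2 fold change of 1.42. Aqp7, an aquaglyceroporin, was lower past the threshold on 0 to 2 reads in Pde2A-/- and 0 to 10 reads in Pde2A+/+ hearts, and it passed in 6 of 17 settings. Rhcg, the kidney relative of Rhag, was near absent at 0.0204 CPM ± 0.0115 (SD, n = 5) and 0.0676 CPM ± 0.0533 (SD, n = 6). Without the 4 hearts with over 10 CPM of Alb, 2 of the relatives were higher and 0 lower.

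The membrane skeleton, to which the Rh and band 3 complexes are tied, gave 6 of 10 genes higher and 0 lower (background 8.93% and 5.67%), with a median log2 fold change of 1.10. Of the 6, Epb42 and Ank1 were already counted among the partners, and the list also shares members with the erythroid markers. After Epb42, the largest rise was that of Add2, the erythroid and neuronal beta adducin, from 6.88 CPM ± 1.32 (SD, n = 6) to 35.4 CPM ± 7.80 (SD, n = 5). Spectrins and adducins are also made outside red cells, and the value of each library is the sum of all sources.

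Other blood and heart cells were measured for the same hearts. Of all genes, 8.93% were higher and 5.67% lower. Macrophage markers, of interest because Icam4 joins erythroblasts to macrophages, rose in 8 of 8 genes with a median log2 fold change of 0.98, their sums being 198 to 257 CPM in Pde2A-/- and 96.8 to 150.4 CPM in Pde2A+/+ hearts, led by Fcgr1 (1.19) and C1qc (1.12). Platelet and megakaryocyte markers, of a lineage close to the erythroid one, rose in 4 of 7 genes tested with a median of 0.97, led by Ppbp (1.81) and Pf4 (1.24), and in 2 without the 4 hearts with over 10 CPM of Alb. Cardiomyocyte markers gave 1 of 8 higher (Nppa, 0.87) and 1 of 8 lower (Ttn, -0.51), with a median of -0.06 on the log2 scale, and neither passed without the 4 hearts with over 10 CPM of Alb. The part of macrophages and platelets in the values of the surface genes was not tested.

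The genes whose pattern was most like that of a surface gene were sought by the root mean square difference of log2 CPM over the 11 hearts, after the mean of each gene was taken off, among 14016 genes with a mean of 1 CPM or more. For Rhag they were Btnl10 (0.27), Cldn13 (0.27) and Hemgn (0.38), and for Ermap Cldn13 (0.17), Btnl10 (0.26) and Klf1 (0.30). Rhd and Kel had the same first choices, Epb42 (0.17 and 0.16) and Slc4a1 (0.19 and 0.21), followed by Nxpe2 (0.20) for Rhd and Oas1b (0.31) for Kel. Icam4 was nearest to Abcb4 (0.20), Rtp4 (0.23) and 5430401H09Rik (0.34). These are distances between profiles in which the difference of genotypes is the main feature, and they carry no test.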

How the data were processed

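Total RNA of each heart was made into a stranded mRNA library (NEBNext Ultra II) and read single-end on an Illumina NextSeq. The authors aligned reads with STAR (version not given in the sources used here) to GRCm38/mm10 and deposited raw counts per gene for each library, unstranded and for either strand. The fourth column, sense-strand counts, was used. Of 55487 identifiers 55227 matched GENCODE M21, which gave symbols, positions and exon lengths. The lines of reads not on genes (19.6% to 22.4%) were left out. Genes with 10 or more counts over the 11 hearts (24177) were fitted with edgeR 4.0.16 in R 4.3.3 (TMM scaling, quasi-likelihood test, Benjamini-Hochberg adjustment, limit 0.05, no covariates). The fit was tested on simulated data. Log2 CPM used a prior count of 2. Summaries used Python 3.11.15, pandas 2.3.3 and numpy 2.4.6, and DESeq2 1.42.0 was an alternative.

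The 8 genes and all lists were chosen with earlier results of these data known. Named by rule were the 8 genes, list members past the limit with a fold change of 2 or more (at most 8 per list), the partners, the 2 largest changes of each comparison list, genes at 0 throughout, and the 3 nearest profiles of each gene with a fold change of 2 or more. Alas2, Icam5, Sema7a, Rhcg, B4galnt2, Hba-a1, Pecam1, Alb, Pde2a and Gm47079 were named after their values were seen. Each heart was taken as a separate embryo, and where hearts shared a litter this was not known. Some genes counted in the lists are not reported here by name. Promoter windows were RefSeq's for GRCm38.p6. Alternatives were other scaling, DESeq2, other filters, reads of both strands, globins left out, the naming style of hearts as a covariate, and leaving out each heart.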

Additional observations from a re-analysis of the deposited data

Results flagged for a closer look

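In 5 of 42 groups of hearts examined (each surface gene and each list sum, by genotype) a single heart lay far from the rest by Dixon's criterion, which chance alone meets in about 1 in 20 groups. Among the surface genes this was Gypc, at 50.2 CPM in Pde2A+/+ heart E against 40.8 to 44.2 CPM in the other hearts of that genotype. The summed CPM of the 27 other blood group carriers was 1939 in Pde2A+/+ heart 7 against 2052 to 2084 in the others. The sum of the family relatives was 579 CPM in Pde2A-/- heart B against 511 to 528 CPM. The sum of the liver markers was 44.2 CPM in Pde2A-/- heart D against 4.74 to 7.49 CPM, and 117.5 CPM in Pde2A+/+ heart E against 3.64 to 46.2 CPM.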

How the results depend on the processing

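Of 814 values recomputed under the alternatives, 0 reversed, 55 moved and 759 stayed within the tolerance, which was 1 SD between hearts for a fold change or level and 1.5 times for a count. That tolerance is wide for Rhag and Ermap, whose Pde2A+/+ levels of 0.512 and 0.550 CPM per kilobase stood at 0.242 and 0.266 without the 4 hearts with over 10 CPM of Alb, and for the other blood group carriers, with 15 higher and 10 to 17 higher as single hearts were left out. Leaving out each heart in turn gave log2 fold changes of 4.19 to 4.66 for Rhag, 2.67 to 2.98 for Rhd, 2.77 to 3.14 for Kel, 3.87 to 4.37 for Ermap, 3.31 to 3.53 for Icam4, 0.47 to 0.57 for Gypc, 0.93 to 1.05 for Xk and 0.27 to 0.41 for Aqp1, and 7 to 8 of the 8 were higher. Aqp1 passed the limit in 4 of 19 settings, among them those without Pde2A-/- heart A and without Pde2A+/+ heart 8. Without the 4 hearts with over 10 CPM of Alb (chosen after seeing the data), the fold changes were 5.50 (Rhag), 3.48 (Rhd) and 5.11 (Ermap), the carriers counted 5 higher and 0 lower, the relatives 2 and 0, adult globins 0 lower, liver markers 1 higher, platelet markers 2 higher, endothelial markers 0 higher, cardiomyocyte markers 0 higher and 0 lower, and all genes 482 higher and 50 lower. With a fold change of 2 required, the carriers counted 5 higher and 0 lower and all genes 535 and 90. With DESeq2 the glycosyltransferases counted 1 higher, relatives 1 lower, endothelial markers 4 higher, cardiomyocyte markers 2 lower and all genes 2354 lower (1372 with edgeR). The relatives counted 1 lower with filterByExpr and 1 lower with reads of both strands, where Icam4 had 0 counts and gave no value. With globins left out before scaling the adult globins gave 0 lower, since they were no longer in the table. With the naming style of hearts as a covariate, the glycosyltransferases counted 1 higher, liver markers 1 lower and cardiomyocyte markers 2 higher and 2 lower. Leaving out single hearts gave 0 to 2 glycosyltransferases higher, 0 to 2 relatives lower, 1 to 2 cardiomyocyte markers lower, 0 to 1 embryonic globins higher, 0 to 2 liver markers lower, and, over all genes, 1288 to 2887 higher and 414 to 2165 lower, the lowest counts being without Pde2A-/- heart D. Except where stated, the cause of these shifts was not tested. No paired analysis was possible because the hearts of the 2 genotypes share no replicate names. Depth limits Rhag and Icam4 most, at 7 and 13 reads in the lowest Pde2A+/+ heart.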
